A study of Homo sapiens with 12 samples.

Results

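The Eph receptors and ephrins described here are 10 genes read in SCC-15, an established human line of oral squamous cell carcinoma. The cells carried a control hairpin or a hairpin against FMOD (fibromodulin, a proteoglycan of the matrix that binds collagen). The 10 genes are 6 receptors (EPHA1, EPHA2, EPHA4, EPHB2, EPHB3 and EPHB4) and 4 ligands (EFNA1, EFNA5, EFNB1 and EFNB2). They come out of 22 Eph receptor and ephrin genes and 61044 IDs in the table. The 10 were chosen from their measured values in these same 12 libraries, so their levels, fold changes and counts of calls are given as a description, without p-values. The other 12 genes of the family and 35 genes of Eph and ephrin signalling are given with the test. P-values are left out for genes that passed the filter on low counts only through 1 side of the comparison. The gene lists were drawn with earlier results of these data known.

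Each group had 3 libraries, 12 in all: NC carried a negative-control short hairpin RNA, and shRNA1, shRNA2 and shRNA3 each carried a different hairpin against FMOD. All were SCC-15 cells grown in 6-well plates in DMEM with fetal bovine serum and harvested at 48 hours. Total RNA went into NEBNext Ultra RNA libraries that were read on an Illumina HiSeq instrument. Every group is the same single cell line, and the labels do not say whether the libraries of a group came from separate cultures, how the hairpin was delivered or whether cells were selected or cloned. The p-values therefore measure only the spread between these libraries, which may be technical. The study's title links FMOD to EGFR signalling. All 3 comparisons share the same NC libraries.

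Eph receptors are receptor tyrosine kinases whose ligands, the ephrins, sit on the membrane of a neighbouring cell, so that signalling needs contact between cells. A-type ephrins are held by a lipid anchor and bind mostly EPHA receptors, while B-type ephrins span the membrane, bind mostly EPHB receptors and signal back into their own cell. In epithelia the system sorts cells, sets boundaries and steers adhesion and movement. EPHA2 is known in carcinoma cells for working without ligand as well as with it.

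For 4 genes the sequence upstream of the annotated start is shown, because the results turn on them: EPHA2 and EFNB1 had the highest mean CPM over the 12 libraries of the receptor and the ligand members, and EFNB2 and EPHB4 are a ligand and the receptor it is best known to bind. Each run is the part of the 250 bases before the RefSeq start (GRCh38.p14) that holds no annotated exon, read 5′ to 3′ on the gene's strand. EPHA2 is at chr1:16156088-16156319 on the minus strand, EFNB1 at chrX:68828771-68828996 on the plus strand, EFNB2 at chr13:106535663-106535912 on the minus strand, and EPHB4 at chr7:100827524-100827773 on the minus strand. Capitals mark matches, on either strand, to any of 4 motifs.
EPHA2: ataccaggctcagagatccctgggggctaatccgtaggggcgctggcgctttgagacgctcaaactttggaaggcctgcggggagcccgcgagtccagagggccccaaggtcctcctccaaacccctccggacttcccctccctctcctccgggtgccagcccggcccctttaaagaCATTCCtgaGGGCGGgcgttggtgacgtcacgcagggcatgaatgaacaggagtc
EFNB1: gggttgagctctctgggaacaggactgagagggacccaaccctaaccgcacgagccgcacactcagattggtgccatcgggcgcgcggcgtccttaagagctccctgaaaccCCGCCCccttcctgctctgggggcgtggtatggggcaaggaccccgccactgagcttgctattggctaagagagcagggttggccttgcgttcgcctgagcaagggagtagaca
EFNB2: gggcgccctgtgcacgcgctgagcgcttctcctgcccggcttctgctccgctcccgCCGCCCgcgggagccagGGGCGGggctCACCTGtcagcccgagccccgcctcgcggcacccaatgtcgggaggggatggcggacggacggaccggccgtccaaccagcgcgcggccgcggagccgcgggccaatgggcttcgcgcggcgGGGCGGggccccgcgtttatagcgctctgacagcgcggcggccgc
EPHB4: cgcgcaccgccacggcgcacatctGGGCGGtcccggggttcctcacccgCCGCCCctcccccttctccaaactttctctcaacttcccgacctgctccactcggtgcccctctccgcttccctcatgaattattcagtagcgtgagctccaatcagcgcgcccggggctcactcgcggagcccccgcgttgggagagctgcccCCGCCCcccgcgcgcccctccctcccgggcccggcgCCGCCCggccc
The motifs were the GC box GGGCGG, the AP-1 site TGANTCA, the E-box CACCTG that SNAI and ZEB factors bind, and the TEAD site GGAATG. EPHA2 held 1 GC box and 1 TEAD match, EFNB1 held 1 GC box, EFNB2 held 3 GC boxes and 1 E-box, and EPHB4 held 4 GC boxes. Of 35093 promoter windows of the same length in the table, 42.6% held a GC box, 6.6% an AP-1 match, 17.5% an E-box and 11.9% a TEAD match. EFNB2 had 40 CpG dinucleotides in its 250-base window, EPHB4 29, and EPHA2 and EFNB1 15 each, beside a median of 11 over all windows. All 10 members had a window in the table. A match describes letters only.

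Library totals lay between 17286934 and 19567192 counts, and levels below are CPM, a gene's counts on a common library size after scaling by TMM (factors from 0.771 to 1.11). FMOD itself had 2, 2 and 3 counts in the NC libraries and 0 in all 9 shRNA libraries, so the check of the knockdown rests on few reads. A count of 0 allows up to 3 counts, between 0.145 and 0.222 CPM in these libraries. The NC counts of FMOD lay within this limit, so these reads cannot show whether FMOD RNA fell. Libraries 1 and 2 of shRNA3 stood apart: their log2 profiles correlated at 0.916 and 0.919 with library 3 of the same group and at 0.995 with each other, and they had the 2 lowest TMM factors (0.771 and 0.795). Within the other groups the lowest correlation was 0.983, and between any NC and any shRNA library the range was 0.829 to 0.855. The squamous markers fixed for the line summed to 2388 to 2578 CPM in NC, 1596 to 2000 in shRNA1, 1801 to 1869 in shRNA2 and 1581 to 2684 in shRNA3. Of these 10 markers, 3 rose and 3 fell with all 3 hairpins. From NC to shRNA1, shRNA2 and shRNA3, mean KRT5 went from 1008 CPM to 21.4, 80.1 and 74.8. CDH1 went from 322 to 38.2, 53.4 and 66.0, and DSC3 from 31.5 to 5.38, 10.0 and 6.79. In the other direction, KRT14 went from 7.58 to 55.4, 24.5 and 149. KRT6A went from 92.2 to 284, 428 and 211, and KRT17 from 312 to 647, 571 and 748. Fibroblast markers summed to 56.7 to 59.6 CPM in NC, 15.5 to 21.0 in shRNA1, 44.2 to 48.2 in shRNA2 and 32.6 to 86.5 in shRNA3. With all 3 hairpins 3 of 4 tested fibroblast markers fell. COL1A1 did not, with a mean of 41.7 CPM in NC, 17.3 in shRNA1, 44.6 in shRNA2 and 65.8 in shRNA3. COL3A1 and DCN were at 5 counts or fewer in every library. Endothelial markers summed to 17.9 to 23.4, 4.03 to 6.08, 6.86 to 8.56 and 8.74 to 14.2 CPM in the same order of groups. With all 3 hairpins 1 of 3 tested rose and 2 fell, and CDH5 made up 17.3 CPM of the NC mean. Leukocyte markers summed to 53.9 to 72.2, 44.0 to 96.7, 80.1 to 85.7 and 109 to 236 CPM, nearly all of it CD68, and the pan-leukocyte gene PTPRC had 0 counts in all NC libraries and at most 9 elsewhere. The part of these shifts in the results below was not tested. In bulk RNA, fewer cells of a type and less RNA per cell cannot be told apart.

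Over all 17532 genes tested, 57.4% passed an adjusted p of 0.05 for shRNA1 (26.8% higher, 30.6% lower), 53.0% for shRNA2 (24.6% higher, 28.4% lower) and 53.9% for shRNA3 (26.4% higher, 27.6% lower) by edgeR's quasi-likelihood test. A call in any 1 comparison was thus the common outcome. With all 3 hairpins 16.0% of genes were called higher and 19.7% lower. All 9 shRNA libraries lay above every NC library for 19.0% of genes and below every NC library for 25.8%.

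Of the 10 members, 9 were called with shRNA1 (4 higher, 5 lower), 6 with shRNA2 (3 higher, 3 lower) and 5 with shRNA3 (3 higher, 2 lower). Without libraries 1 and 2 of shRNA3, 7 were called with shRNA3 (3 higher, 4 lower), and without library 3 of that group 8 were. EPHB4 and EFNB1 were called higher with all 3 hairpins, and EPHA1 and EPHA4 lower. For 2 of the 10 (EPHB4 and EFNB1) all 9 shRNA libraries lay above every NC library, for 3 (EPHA1, EPHA4 and EPHB2) all lay below, and 5 overlapped. All 10 passed the filter on low counts, but EPHA4 passed only through NC, so its groups had to differ. The median log2 fold change of the members was -0.37, -0.30 and 0.21 for shRNA1, shRNA2 and shRNA3, beside -0.02, -0.05 and -0.03 over all genes tested. Since these contrasts chose the members, nothing is read from these counts.

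**Figure D1:**
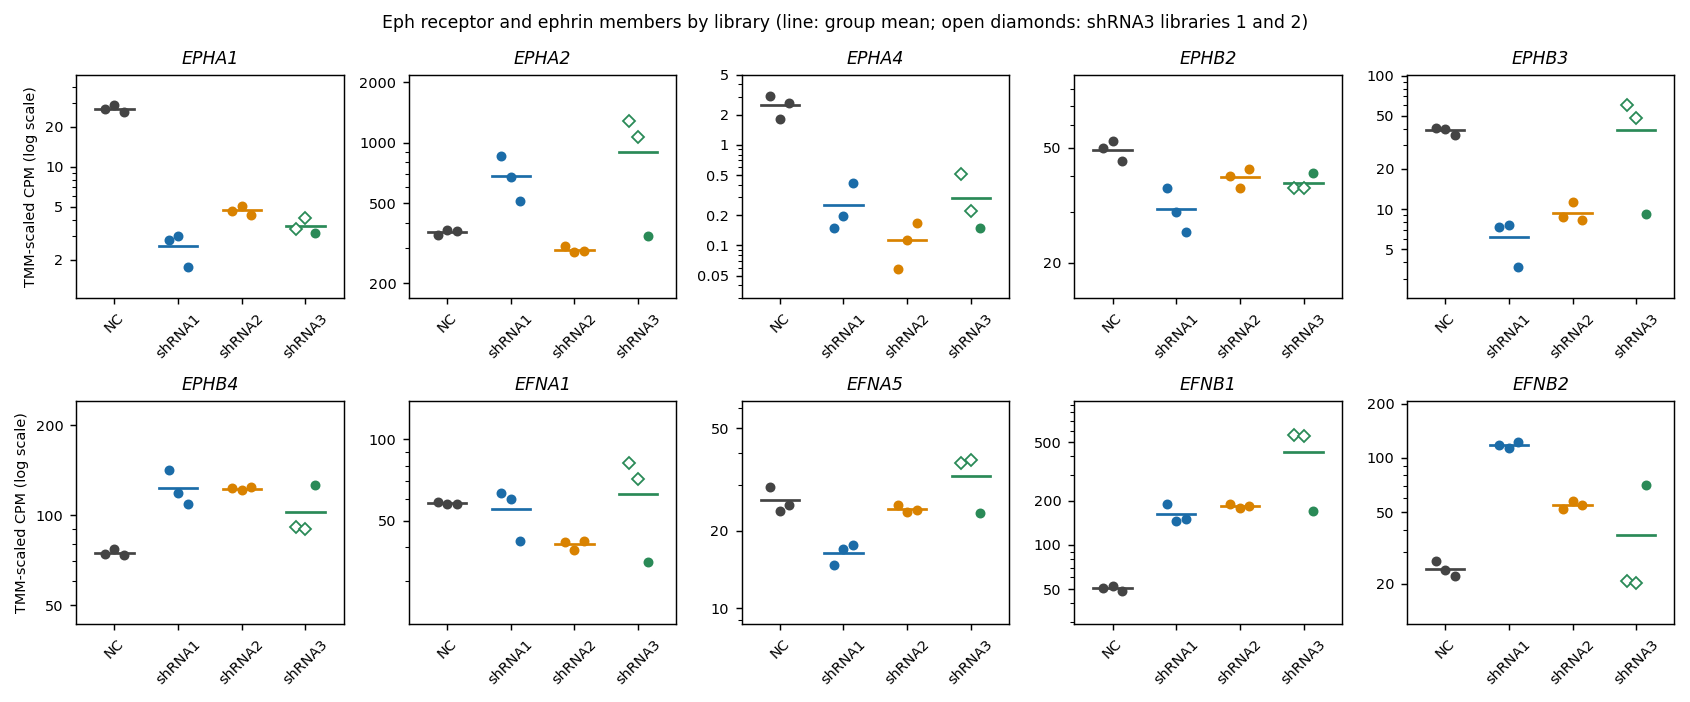
TMM-scaled CPM (log axis) of the 10 members in each of the 12 libraries, 1 panel a gene with its own axis range; points are libraries, lines are group means and open diamonds are libraries 1 and 2 of shRNA3. EFNB1 lies above NC in all 9 shRNA libraries and EPHA1 below, while EPHA2, EPHB3 and EFNB2 differ between libraries 1 and 2 of shRNA3 and library 3.

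EPHA2 was the most abundant receptor. The gene (ENSG00000142627, chr1:16124337-16156087, minus strand, GRCh38 as are all positions that follow) had 347, 368 and 364 CPM in the NC libraries. It had 859, 676 and 515 CPM in the shRNA1 libraries, 307, 287 and 289 in shRNA2, and 1284, 1067 and 345 in shRNA3. All shRNA1 libraries were above NC, all shRNA2 libraries were below it, and shRNA3 had 2 libraries far above NC and 1 just under its lowest value. The log2 fold change was 0.92 (SE 0.37) for shRNA1, -0.29 (SE 0.36) for shRNA2 and 1.32 (SE 0.37) for shRNA3, and without libraries 1 and 2 of shRNA3 the last was -0.03. The shRNA1 value passed the threshold in the main fit and missed it in 11 of 20 alternatives, among them leaving out any single NC library.

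EPHA1, the first Eph receptor described, was lower in every shRNA library. The gene (ENSG00000146904, chr7:143390289-143408892, minus strand) had 27.0, 29 and 25.7 CPM in NC. It had 2.83, 3.00 and 1.75 CPM in shRNA1, 4.68, 5.07 and 4.37 in shRNA2, and 3.41, 4.08 and 3.18 in shRNA3. The groups did not overlap with NC, and libraries 1 and 2 of shRNA3 did not part from library 3. On the log2 scale the change was -3.43 (SE 0.24), -2.53 (SE 0.23) and -2.94 (SE 0.24), that is 10.7-fold, 5.79-fold and 7.68-fold lower. Its exons overlap those of ZYX on the opposite strand, and whether the authors' counting used strand is not given in the sources used here, so reads of such a pair may not be told apart.

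EPHA4, a receptor that binds both A-type and B-type ephrins, was near the limit of detection. The gene (ENSG00000116106, chr2:221418027-221574202, minus strand) had 60, 37 and 51 counts in NC (3.03, 1.82 and 2.58 CPM). It had 3, 4 and 8 counts in shRNA1, 1, 2 and 3 in shRNA2, and 7, 3 and 3 in shRNA3. Every shRNA library was below every NC library. The fold was 9.65 lower for shRNA1 and 8.51 lower for shRNA3 by the fit, and for shRNA2, where counts were 1 to 3, the ratio of the levels was 21.8 (95% counting interval 9.78 to 60.4). Its exons overlap the antisense gene AC079834.2.

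EPHB2, which guides cell sorting in the gut epithelium and repels axons, moved little. The gene (ENSG00000133216, chr1:22710839-22921500, plus strand) had 49.8, 52.9 and 45.2 CPM in NC. It had 36.4, 30.0 and 25.6 CPM in shRNA1, 40.1, 36.2 and 42.4 in shRNA2, and 36.2, 36.4 and 41.0 in shRNA3. All 9 shRNA libraries were below the lowest NC library, by a small margin for the highest of them. Fold changes were -0.69 (SE 0.15), -0.32 (SE 0.15) and -0.38 (SE 0.15) on the log2 scale, and only the first was called; the others passed in 4 and 6 of 20 alternatives. Its exons overlap MIR4253 on the opposite strand.

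EPHB3, a partner of EPHB2 in epithelial sorting, split by library. The gene (ENSG00000182580, chr3:184561784-184582409, plus strand) had 40.5, 40.1 and 36.2 CPM in NC. It had 7.31, 7.60 and 3.66 CPM in shRNA1, 8.66, 11.3 and 8.30 in shRNA2, and 60.1, 48.6 and 9.23 in shRNA3. Libraries 1 and 2 of shRNA3 were above every NC library, and the other 7 shRNA libraries were below all of them. Against NC the log2 fold change was -2.65 (SE 0.54), -2.05 (SE 0.53) and 0.01 (SE 0.50), and for shRNA3 it was -2.05 and past the threshold with library 3 alone and -0.44 with library totals alone.

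EPHB4, the receptor for ephrin-B2 that is best known from the split of arteries and veins, was higher in every shRNA library. The gene (ENSG00000196411, chr7:100802565-100827521, minus strand) had 73.9, 77.3 and 73.3 CPM in NC. It had 142, 119 and 109 CPM in shRNA1, 123, 121 and 124 in shRNA2, and 91.2, 89.6 and 126 in shRNA3. The groups did not overlap with NC, and the 2 lowest shRNA values were libraries 1 and 2 of shRNA3. Log2 fold changes were 0.72 (SE 0.15), 0.71 (SE 0.15) and 0.45 (SE 0.15). The shRNA3 call was lost in 5 of 20 alternatives, with the log2 value between 0.15 (library totals without TMM) and 0.78 (library 3 alone). Its exons overlap SLC12A9 on the opposite strand.

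EFNB1, a transmembrane ligand of EPHB receptors whose loss in people causes craniofrontonasal syndrome, was the member with the largest rise in shRNA2 and shRNA3. The gene (ENSG00000090776, chrX:68828997-68842147, plus strand) had 50.9, 52.1 and 48.9 CPM in NC. It had 190, 146 and 149 CPM in shRNA1, 189, 179 and 185 in shRNA2, and 563, 552 and 169 in shRNA3. The lowest shRNA library was above the highest NC library, and libraries 1 and 2 of shRNA3 were above all others. The log2 fold change was 1.68 (SE 0.35), 1.87 (SE 0.35) and 3.08 (SE 0.36), that is 3.20-fold, 3.64-fold and 8.46-fold higher, and 1.77 on the log2 scale for shRNA3 with library 3 alone.

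EFNB2, the ligand of EPHB4 and EPHA4 and itself a signalling molecule, rose most with shRNA1. The gene (ENSG00000125266, chr13:106489731-106535662, minus strand) had 26.7, 23.9 and 22.2 CPM in NC. It had 118, 114 and 122 CPM in shRNA1, 52.1, 57.9 and 54.6 in shRNA2, and 20.9, 20.3 and 70.4 in shRNA3. The shRNA1 and shRNA2 groups were each above NC without overlap, and within shRNA3 libraries 1 and 2 were under the lowest NC library while library 3 was above the highest. Log2 fold changes were 2.28 (SE 0.40), 1.18 (SE 0.39) and 0.62 (SE 0.38), and for shRNA3 1.57 and past the threshold with library 3 alone but -0.24 without library 3. The shRNA2 call was lost in 5 of 20 alternatives. Its exons overlap AL138689.2 on the opposite strand.

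EFNA1, the A-type ligand that binds EPHA2, did not pass the threshold with any hairpin in the fit of all 12 libraries. The gene (ENSG00000169242, chr1:155127460-155134857, plus strand) had 58.7, 57.8 and 57.6 CPM in NC. It had 63.3, 60.2 and 41.9 CPM in shRNA1, 41.8, 39.0 and 42.1 in shRNA2, and 81.7, 71.1 and 35.1 in shRNA3. Only shRNA2 lay apart from NC, below it, while shRNA1 and shRNA3 had libraries on both sides. The log2 fold change was -0.07 (SE 0.26), -0.50 (SE 0.26) and 0.11 (SE 0.26). For shRNA3 the sign depended on the libraries and the scaling: it was -0.69 and past the threshold with library 3 alone, 0.39 and past the threshold without library 3, and -0.29 with library totals alone. The shRNA2 value passed in 4 of 20 alternatives.

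EFNA5, an A-type ligand that also binds EPHB2, was lower with shRNA1 alone among the calls. The gene (ENSG00000184349, chr5:107376889-107670895, minus strand) had 29.6, 23.9 and 25.2 CPM in NC. It had 14.7, 16.9 and 17.6 CPM in shRNA1, 25.1, 23.6 and 24.1 in shRNA2, and 36.5, 37.6 and 23.4 in shRNA3. The shRNA1 libraries lay under NC, the shRNA2 libraries overlapped it, and libraries 1 and 2 of shRNA3 lay above it. The log2 fold change was -0.68 (SE 0.19), -0.11 (SE 0.19) and 0.31 (SE 0.19), and for shRNA3 it was -0.14 with library 3 alone, -0.07 with library totals alone, and 0.50 and past the threshold without library 3.

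**Figure D2:**
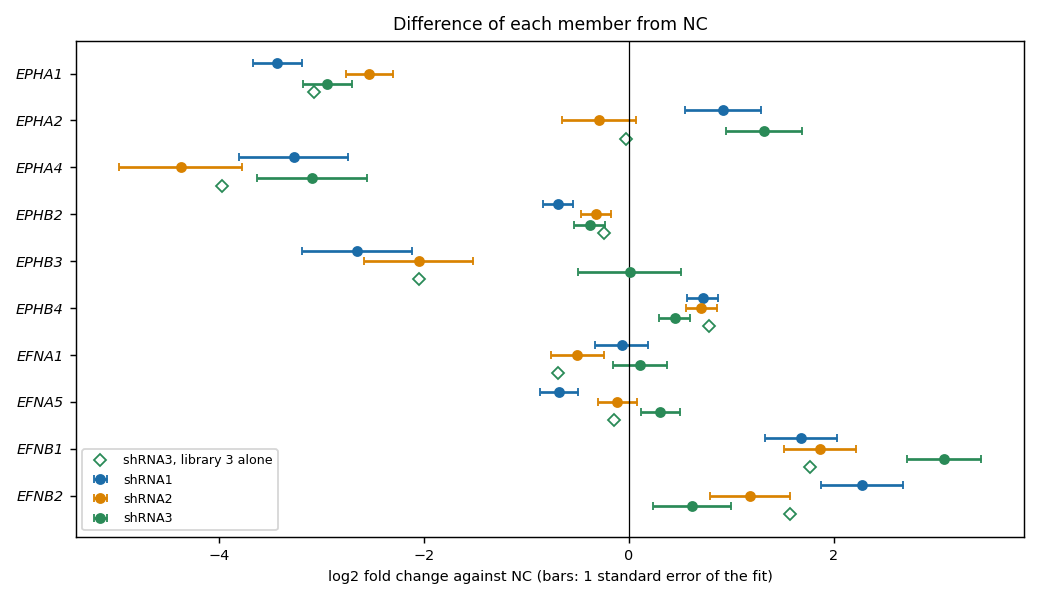
Log2 fold change of each member against NC (x axis) for the 3 hairpins, with bars of 1 standard error from the edgeR fit; open diamonds give shRNA3 with library 3 alone. EPHA1 and EPHA4 lie left of 0 and EPHB4 and EFNB1 right of it for all 3, and EPHA2 lies on both sides of it.

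Levels can be set between genes only per length, so CPM was divided by the kilobases of the union of exons (GENCODE 29). On this scale EPHA2 held 86.6 ± 2.65 CPM per kb in NC (SD, n = 3), 164 ± 41.3 in shRNA1, 70.8 ± 2.65 in shRNA2 and 216 ± 118 in shRNA3. It was the first receptor in each group, and EPHB4 came next with 11.6 ± 0.34 CPM per kb in NC, 19.2 ± 2.63 in shRNA1, 19.0 ± 0.198 in shRNA2 and 15.9 ± 3.17 in shRNA3. No library of EPHB4 reached EPHA2 in any group. In NC the order of levels per kb went on with EPHB3 (8.59), EPHA1 (5.76), EPHB6 (4.93, not a member), EPHB2 (3.94) and EPHA10 (1.85, not a member), and no neighbours in that order overlapped. Below them EPHA3 (0.361), EPHA4 (0.328) and EPHA6 (0.295) overlapped their neighbours.

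Among ligands the order changed from NC to shRNA. In NC the level per kb was highest for EFNA1 (22.8 ± 0.23, SD, n = 3), then EFNB1 (15.3 ± 0.488), EFNA4 (8.61), EFNA3 (7.65), EFNB2 (4.84), EFNA5 (4.59) and EFNB3 (3.91), and only the last 3 overlapped a neighbour. EFNB1 led in each shRNA group, with 48.8 ± 7.44 CPM per kb in shRNA1, 55.7 ± 1.54 in shRNA2 and 129 ± 67.7 in shRNA3, and its libraries did not overlap the next ligand in any group. Second came EFNB2 in shRNA1 (23.5 ± 0.858), which overlapped EFNA1 (21.7 ± 4.56), and EFNA1 in shRNA2 (16.1 ± 0.676) and shRNA3 (24.7 ± 9.61). In shRNA3 every ligand below EFNB1 overlapped its neighbour in the order.

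**Figure D3:**
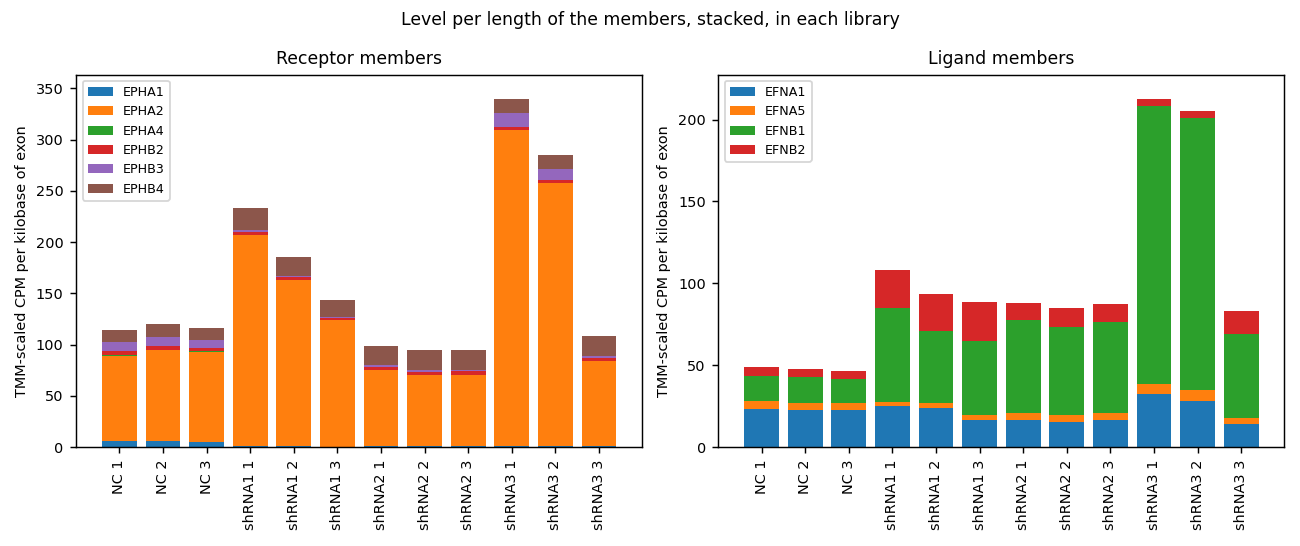
Stacked bars of TMM-scaled CPM per kilobase of exon in each of the 12 libraries (x axis), for the 6 receptor members (left) and the 4 ligand members (right). EPHA2 fills most of every receptor bar, and the EFNB1 part is larger than the EFNA1 part in all 9 shRNA libraries and smaller in the 3 NC libraries.

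The class sums moved unequally. The 2 ephrin-B members summed to 20.7, 20.5 and 19.2 CPM per kb in NC, 80.9, 66.9 and 69.3 in shRNA1, 67.5, 65.6 and 66.6 in shRNA2, and 174, 171 and 65.1 in shRNA3. All 9 shRNA libraries were thus above NC, and library 3 of shRNA3 was the lowest of the 9. The 2 ephrin-A members summed to 27.4 ± 0.74 CPM per kb in NC, 24.6 ± 4.36 in shRNA1, 20.4 ± 0.781 in shRNA2 and 30.4 ± 11 in shRNA3 (SD, n = 3). The 3 EPHB members summed to 24.2 ± 1.08 in NC, 23.0 ± 3.41 in shRNA1, 24.3 ± 0.154 in shRNA2 and 27.6 ± 2.74 in shRNA3, with EPHB4 higher and EPHB3 lower than NC in shRNA1 and shRNA2. The 3 EPHA members, nearly all EPHA2, summed to 92.7 ± 2.69, 165 ± 41.4, 71.8 ± 2.64 and 217 ± 118 CPM per kb in NC, shRNA1, shRNA2 and shRNA3.

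As a share of the summed level of the 6 receptor members per kb, EPHA2 held 74.1 ± 1.06% in NC (SD, n = 3), 87.3 ± 1.21% in shRNA1, 73.7 ± 0.796% in shRNA2 and 85.8 ± 8.07% in shRNA3. Within shRNA3 the share was 90.8%, 90% and 76.5% in libraries 1, 2 and 3. EPHB4 held 9.96 ± 0.152% in NC, 10.4 ± 1.22% in shRNA1, 19.8 ± 0.53% in shRNA2 and 9.02 ± 7.78% in shRNA3. EPHB3 held 7.36 ± 0.484%, 0.717 ± 0.173%, 2.16 ± 0.406% and 3.18 ± 1.13% in the same order. Among the 4 ligand members EFNB1 held 32.1 ± 0.913% in NC, 50.2 ± 2.87% in shRNA1, 64.0 ± 0.579% in shRNA2 and 74.2 ± 11% in shRNA3, and EFNA1 went from 48.1 ± 0.923% to 22.3 ± 3.44%, 18.5 ± 0.462% and 15.1 ± 1.51%.

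Several members differed between the libraries of shRNA3. Against the other 7 shRNA libraries, libraries 1 and 2 of shRNA3 were above all for EPHA2, EPHB3, EFNA1, EFNA5 and EFNB1. They were below all for EPHB4 and EFNB2, and within the range of the other 7 for EPHA1 and EPHB2. For EPHA4, library 1 (0.519 CPM) was above the highest of the other 7 (0.413 CPM), and library 2 (0.218 CPM) was within their range. The mean of libraries 1 and 2 was 5.89 times library 3 for EPHB3, 3.40 times for EPHA2, 3.30 times for EFNB1 and 2.17 times for EFNA1. For EFNB2 library 3 was 3.42 times their mean. EFNB1 in libraries 1 and 2 was 11 times NC, and EPHA2 3.26 times. The highest library was at most 1.24 times the lowest for the members other than EPHA4 in NC. Scaling bears on these values, since libraries 1 and 2 had the lowest TMM factors: with library totals alone the median log2 fold change of all genes shifted by -0.084, -0.13 and -0.32 for the 3 hairpins.

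Of the 12 other family genes, 8 passed the filter, and 6 of these were called with each hairpin (1 higher, 5 lower; also 6 without libraries 1 and 2 of shRNA3). The 5 that fell passed the filter only through NC and EFNA2 only through the shRNA groups. A call was thus nearly built in for these 6, so the count supports nothing and no p is given for them. EPHB6 (ENSG00000106123, chr7:142855061-142871094), a receptor without kinase activity, had 28.3, 26.8 and 23.7 CPM in NC and 0 to 2 counts in every shRNA library. The ratio of levels was 395 (95% counting interval 154 to 1451) for shRNA1 and 1389 (249 to 54911) for shRNA2, and the level was at least 134-fold lower with shRNA3, taking 3 counts in each library as the floor. The filter made it likely that the shRNA libraries of this gene would lie below NC.

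EPHA10 (ENSG00000183317, chr1:37713880-37765133), also a kinase-dead receptor, had 15.9, 14.8 and 14.6 CPM in NC and 0 to 3 counts in each shRNA library. Its NC level was 909 times that of shRNA1 (95% counting interval 163 to 35961), 200 times that of shRNA2 (77.8 to 735) and 716 times that of shRNA3 (128 to 28318). EFNB3 (ENSG00000108947, chr17:7705202-7711378), the third transmembrane ephrin, had 11.9, 13.6 and 12.4 CPM in NC, 2, 6 and 3 counts in shRNA1, and 0 in the 6 libraries of shRNA2 and shRNA3. It was 66.7-fold lower in shRNA1 by the fit, at least 74.1-fold lower in shRNA2 and at least 64.1-fold lower in shRNA3. While EFNB1 was above NC in all 9 shRNA libraries, EFNB3 was at 6 counts or fewer in each of them.

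EPHA3, a receptor of mesenchymal and neural tissue, had 51, 43 and 50 counts in NC and 0 in all 9 shRNA libraries. Its fall was at least 16.1-fold for shRNA1, 14.1-fold for shRNA2 and 12.3-fold for shRNA3. EPHA6 had 34, 40 and 37 counts in NC and 0 to 11 in the shRNA libraries. Its log2 fold change was -3.72 (SE 0.75), -2.20 (SE 0.67) and -2.44 (SE 0.69), and the shRNA2 call was lost without library 3 of that group. EFNA2 (ENSG00000099617, chr19:1286154-1300237), an A-type ephrin, went the other way, with 0, 2 and 0 counts in NC and 61 to 86 in every shRNA library. The ratio was 106 (95% counting interval 29 to 881) for shRNA1, 120 (32.8 to 997) for shRNA2 and 142 (38.9 to 1181) for shRNA3. Even so its level per kb in the shRNA groups, 3.72 to 5.16, was under that of EFNA1. Beside the member EFNA5, it was higher in shRNA1 (EFNA5 2.87) without overlap. The 2 genes overlapped in shRNA2 (EFNA5 4.26) and shRNA3 (EFNA5 5.7).

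EFNA3 and EFNA4, A-type ephrins next to EFNA1 on chromosome 1, passed the filter through both sides. Neither passed the test in the main fit. EFNA3 passed it in 1 of 20 alternatives with shRNA1 and 2 of 20 with shRNA3, and EFNA4 in 2 of 20 with shRNA3. EFNA3 had 14.1 to 15.1 CPM in NC, 7.43 to 13.9 in shRNA1, 10.8 to 13.5 in shRNA2, and 30.2, 35.3 and 12.2 in shRNA3 (edgeR adjusted p 0.272, 0.542 and 0.0614). EFNA4 had 10.0 to 11.9 CPM in NC, and its log2 fold change was 0.06 (SE 0.19), -0.14 (SE 0.19) and -0.40 (SE 0.20), with an edgeR adjusted p of 0.799, 0.558 and 0.106. Both overlap exons of AL691442.1 on their own strand. EPHA5, EPHA7, EPHA8 and EPHB1 were not tested: EPHA5 had 0 counts in NC and at most 5 elsewhere, EPHA7 0 to 5, EPHA8 0 to 3, and EPHB1 0, 7 and 5 counts in NC and 0 in all 9 shRNA libraries.

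**Figure D4:**
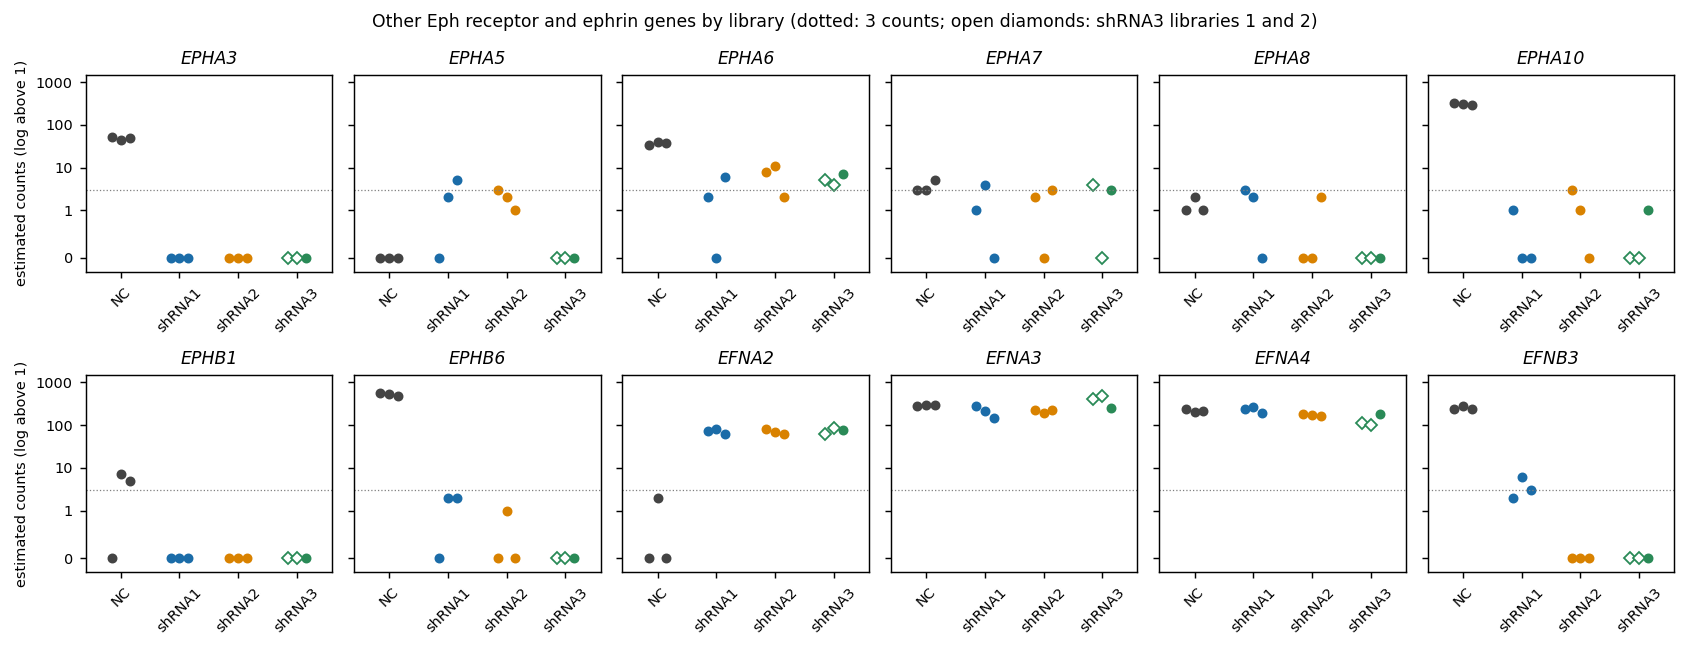
Estimated counts (y axis, log scale above 1 and linear below) of the 12 other Eph receptor and ephrin genes in the 12 libraries by group, with a dotted line at 3 counts and open diamonds for libraries 1 and 2 of shRNA3. EPHB6, EPHA10, EFNB3 and EPHA3 drop to or near 0 in all 9 shRNA libraries, and EFNA2 rises from at or near 0.

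The signalling list held 35 genes, all tested, of which 25 were called with shRNA1 (10 higher, 15 lower), 26 with shRNA2 (10 higher, 16 lower) and 25 with shRNA3 (10 higher, 15 lower; 9 higher and 13 lower without libraries 1 and 2). That is 71.4%, 74.3% and 71.4% of the list, beside 57.4%, 53.0% and 53.9% of all genes tested. With all 3 hairpins 7 rose and 10 fell. All 9 shRNA libraries lay above NC for 8 genes and below for 11 of the 35, where over all genes the shares were 19.0% and 25.8%. The median log2 fold change was -0.10, -0.41 and -0.17 beside -0.02, -0.05 and -0.03 over all genes tested. KALRN and RHBDL2 passed the filter only through NC, and GRIP1, a scaffold of ephrin-B, only through the shRNA groups. The list was drawn with earlier results of these data known, so nothing is read from its counts, shares or medians.

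SRC family kinases carry signals from both ephrins and Eph receptors. Of the 4 listed, none was called higher, and 2, 4 and 3 were called lower with shRNA1, shRNA2 and shRNA3. Over all genes tested 26.8%, 24.6% and 26.4% were called higher and 30.6%, 28.4% and 27.6% lower, shares that stand beside every sublist count below too. LYN had a log2 fold change of 0.23, -0.44 and -0.17. Only its shRNA2 value was called, and that call was lost in 8 of 20 alternatives. FYN had 31.0, 29.8 and 29.6 CPM in NC and between 0.111 and 1.75 CPM in the 9 shRNA libraries, with a log2 fold change of -5.07 (SE 0.61), -6.80 (SE 0.70) and -5.03 (SE 0.62) and an edgeR adjusted p of 3.85e-05, 1.24e-05 and 4.83e-05. YES1 had 128, 123 and 139 CPM in NC and 32.1 to 55.9 in the shRNA libraries, 2.50-fold, 3.23-fold and 3.64-fold lower (edgeR adjusted p 1.31e-05, 2.53e-06 and 1.48e-06). For both genes no shRNA library reached NC. SRC itself had a log2 fold change of 0.25, -0.61 and -0.55 and passed the test with shRNA2 and shRNA3, but the shRNA2 call was lost in 8 of 20 alternatives and the shRNA3 call in 13 of 20, with the replicate block among them and a value of -0.13 with library 3 alone.

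The 14 adaptors, exchange factors and GTPase regulators went both ways: 5 rose and 5 fell with shRNA1, 5 rose and 3 fell with shRNA2, and 6 rose and 6 fell with shRNA3. CHN1, a Rac inhibitor that acts below EPHA4, rose from 0.908, 0.836 and 0.912 CPM in NC to 2.78 to 5.83 in shRNA1, 6.81 to 7.14 in shRNA2 and 4.0 to 5.21 in shRNA3 (log2 2.18, 2.97 and 2.37; edgeR adjusted p 0.000113, 1.37e-05 and 6.95e-05). VAV2, an exchange factor recruited by Eph receptors, rose from 57.6, 58.1 and 59.0 CPM to 160 to 178, 96.0 to 107, and 74.3, 76.9 and 122 (edgeR adjusted p 3.04e-05, 0.0022 and 0.00846). TIAM1, an exchange factor for Rac, rose by a log2 of 0.68, 0.58 and 0.85 (edgeR adjusted p 0.00567, 0.015 and 0.00162). KALRN, an exchange factor below EPHB receptors, had 4.92 to 5.51 CPM in NC and at most 0.774 in the shRNA libraries, 9.28-fold, 22.7-fold and 24.9-fold lower, but it passed the filter only through NC, so its groups had to differ and no p is given. The VAV2 call with shRNA3 was lost with library totals alone (log2 0.36), and the TIAM1 call with shRNA2 without NC library 2 (log2 0.55).

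Of the 6 genes of cleavage and turnover, 1 rose and 4 fell with shRNA1, 1 rose and 5 fell with shRNA2, and 4 fell and 0 rose with shRNA3. RHBDL2, a membrane protease that can cleave B-type ephrins, had 9.68, 9.35 and 8.11 CPM in NC and at most 0.0741 CPM in any shRNA library. Its NC level was 545 times that of shRNA1 (95% counting interval 97.3 to 21553) and 214 times that of shRNA3 (59.1 to 1775), and it was at least 53.2-fold lower in shRNA2. It too passed the filter only through NC, so no p is given. ADAM10, the protease that sheds ephrins from the cell surface, fell by a log2 of 0.78 with shRNA1 and 0.48 with shRNA2 (edgeR adjusted p 0.00403 and 0.0479). The ADAM10 call with shRNA2 was lost in 12 of 20 alternatives, the replicate block and each left-out NC library among them, and its shRNA3 value was -0.12 (adjusted p 0.6), or -0.66 and past the threshold with library 3 alone. Among the 5 partners of ephrin-B, 2 rose and 2 fell with shRNA1 and with shRNA2, and 2 rose and 1 fell with shRNA3. PTPN13, a phosphatase that docks on the ephrin-B tail, rose by a log2 of 0.77, 1.6 and 0.80 (edgeR adjusted p 0.00177, 1.23e-05 and 0.00152), and its shRNA3 call was lost with library totals alone (0.48).

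**Figure D5:**
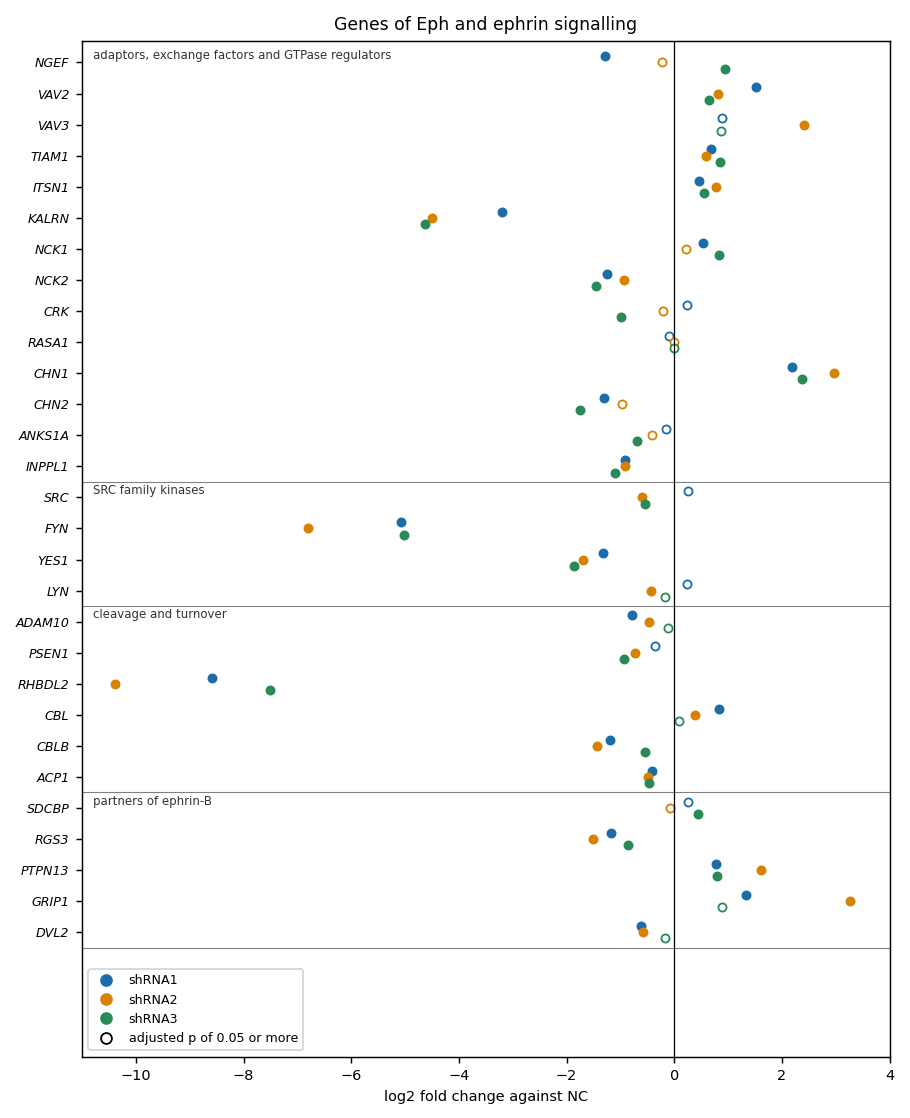
Log2 fold change against NC (x axis) of the signalling genes in 4 sublists for the 3 hairpins, filled where the edgeR adjusted p was under 0.05. FYN, KALRN and RHBDL2 lie far to the left for all 3 hairpins, and CHN1 and VAV2 lie to the right.

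The genes whose profile over the 12 libraries was most like a member's were found by Pearson correlation of log2(CPM + 1). For EPHA2 these were JMJD6 (r = 0.985), FOSL1 (0.981) and DNAJC25 (0.979), and for EFNB1 they were TSPO (0.996), MISP (0.996) and PLCD3 (0.995). The groups stand apart and libraries 1 and 2 of shRNA3 weigh heavily in both, so these values describe the pattern over 12 libraries and carry no test. FOSL1, an AP-1 subunit, had a mean of 99.1 CPM in NC, 204 in shRNA1, 57.4 in shRNA2 and 323 in shRNA3, the same order of groups as EPHA2. TSPO, a protein of the outer mitochondrial membrane, had 114, 254, 258 and 466 CPM, the order of EFNB1.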

How the data were processed

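RNA from 12 libraries of SCC-15 cells (NC and 3 FMOD hairpins, 3 libraries each, grouped and numbered by sample title) was analysed from a single table. The authors deposited estimated counts per gene, not scaled; 13.8% of the values are not whole numbers, and they were rounded here. The submitters' processing notes name HISAT2, HTSeq 0.11.2 and GRCh38, without role or order; the annotation, filters and use of strand are not given in the sources used here. IDs were matched to a symbol for 60463 of 61044 IDs, and positions and exon lengths came from GENCODE 29 (GRCh38).

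Genes were kept by filterByExpr (minimum count 10, minimum total 15), leaving 17532. edgeR 4.0.16 (R 4.3.3) fitted the 4 groups together with TMM and a robust quasi-likelihood model (8 residual degrees of freedom, common biological coefficient of variation 0.289), and p-values were two-sided and Benjamini-Hochberg adjusted over all genes with a threshold of 0.05. The standard error is the log2 fold change over the square root of F. A group at 0 gives a bound against 3 counts per library, and a group with 1 to 3 counts gives a ratio with an exact 95% interval; neither covers more than counting error, as no molecular identifiers were counted. No pair of libraries of a group agreed within sampling noise (chi-square per gene from 3.62 to 242). Motifs were searched in the RefSeq promoter table (GRCh38.p14). DESeq2 1.42.0 was an alternative.

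The members and gene lists were chosen with earlier results of these data known. The named genes were all members, all other family genes and the 3 genes most like the top receptor and ligand. Also named were up to 5 rising and 5 falling signalling genes called alike for the 3 hairpins. These were ranked by the change with the hairpin that moved them least. ADAM10, SRC, LYN and GRIP1 were added after their values were seen. 1 sublist of the signalling genes enters the counts over all 35 and is not reported here by gene. The fit was tested on simulated data.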

Additional observations from a re-analysis of the deposited data

Results flagged for a closer look

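EPHA2 lay on opposite sides of NC with 2 hairpins against the same target. All 3 shRNA1 libraries were above every NC library (log2 fold change 0.92) and all 3 shRNA2 libraries were below every NC library (-0.29), a gap of 1.21 on the log2 scale. The difference was not tested, because EPHA2 was chosen with these values in view. The shRNA2 value alone did not pass the threshold, and the shRNA1 value passed it in 9 of 20 alternatives.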

How the results depend on the processing

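No call or direction changed for EPHA1, EPHA4 and EFNB1 under any alternative that tested them. For EPHA2, EPHB2, EPHB3, EPHB4, EFNA1, EFNA5 and EFNB2 at least 1 hairpin's value changed side of the threshold under some alternative. The counts of members called moved with the threshold: requiring a log2 change of at least 1 left 5 for shRNA1, and an adjusted p under 0.01 left 3 for shRNA3. The log2 requirement left 14, 12 and 10 signalling genes for shRNA1, shRNA2 and shRNA3. Leaving out 1 library at a time gave 8 to 9 members for shRNA1, 5 to 8 for shRNA2 and 4 to 8 for shRNA3 (8 without shRNA3 library 3), 6 to 7, 5 to 6 and 6 to 8 other family genes, and 20 to 31, 20 to 29 and 18 to 29 signalling genes. The share of EPHA2 among receptors was 65.1% in NC, 80.5% in shRNA1 and 62.5% in shRNA2 from raw counts, and 69.6% in NC over all 14 receptors, and lay between 73.5% and 74.5%, 86.7% and 87.9%, 73.2% and 73.9%, and 83.2% and 90.4% in NC, shRNA1, shRNA2 and shRNA3 with 1 library left out.

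Without shRNA3 libraries 1 and 2 the shRNA3 log2 fold change turned to -0.03 for EPHA2, -2.05 for EPHB3, -0.69 for EFNA1, -0.14 for EFNA5, -0.23 for EFNA3 and -0.09 for FOSL1; fewer samples entered that fit and the lone library was assumed to vary like the other groups. EFNA4 with shRNA1, near 0 throughout, turned to -0.02 with library totals, -0.03 with a mean of at least 50 counts and, with 1 library left out, lay between -0.01 (without shRNA1 library 2) and 0.18. JMJD6 with shRNA2 turned to 0.0 without a filter and lay between -0.07 and 0.02 (without shRNA2 library 3) with 1 library left out. The cause was not tested.

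No pairing of the libraries by replicate number was seen. Deviations from the group means correlated at a mean of -0.0107 over 18 pairs with the same number and 0.00443 over 36 with different numbers. With 3 libraries in each group these values cannot exclude pairing. With the replicate block 9, 6 and 5 members, 6, 6 and 6 other family genes and 25, 24 and 23 signalling genes were called for shRNA1, shRNA2 and shRNA3. Genes at a few counts, such as EPHA4, limit what the depth can show.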

Other observations

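EFNA4, EFNA3 and EFNA1 lie in that order on the plus strand of chromosome 1, between 155063731 and 155134857 (GRCh38). In libraries 1 and 2 of shRNA3, EFNA1 had 81.7 and 71.1 CPM and EFNA3 30.2 and 35.3, in each case above the other 10 libraries, while EFNA4, the third gene of the group, had 8.52 and 7.14, below the other 10. These values were noticed after the data were seen and were not tested.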
